A study of Homo sapiens with 8 samples.

Results

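The genes described here are 37 genes of homologous recombination and of the Fanconi anaemia pathway, with the kinases that sense damaged DNA, the mismatch recognition gene MSH6 and the end joining polymerase gene POLQ. They were taken as a list of named repair genes, and a probe was counted as a member where its RefSeq accession matched the symbol of a listed gene. The rule uses no measured value, but the list was drawn up with earlier results of these data known. All 37 were found on the arrays and tested, among 28850 genes tested in all. The RNA came from LNCaP cells, a line grown from a human prostate cancer metastasis. The cells received 30 nM siRNA against the transcription factor GATA2 (siGATA2) or a scrambled siRNA (siControl), delivered with Oligofectamine to cultures kept in RPMI-1640 with fetal bovine serum. RNA was taken 72 h later and measured on 8 one-colour Agilent arrays, 4 for each group, which the submitters call biological replicates. The model is a single cell line in culture, a transient gene silencing and a single time point, and no other siRNA or rescue was measured on these arrays.

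Homologous recombination repairs broken chromosomes by copying an intact sister DNA molecule: the MRE11 complex and its partners trim the broken ends, BRCA1 with BARD1 and PALB2 brings in BRCA2, and BRCA2 prepares the trimmed DNA for the exchange of strands with the sister, which proteins such as XRCC3 and RAD54L assist. The Fanconi pathway acts where opposite DNA strands are crosslinked, through a core complex that attaches ubiquitin to FANCD2 and FANCI. Because a sister copy exists only after DNA has been replicated, many of these genes are known to be expressed mainly in cells that are replicating, and in prostate tumours several of them, BRCA2 and ATM among them, are known for inherited or acquired loss.

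Unless another processing is named, values are log2 processed signals, quantile-normalized so that the arrays share 1 distribution. A log2 fold change is the mean over the arrays labelled siGATA2 minus the mean over those labelled siControl. Each array carried RNA from a whole culture, so fewer cells expressing a gene and less of its RNA per cell cannot be told apart. GATA2 itself did not check the labels: the 4 arrays labelled siGATA2 read 12.61, 12.54, 11.57 and 11.40, in the order of their replicate numbers used throughout, and the 4 labelled siControl read 11.74, 11.28, 11.10 and 11.29. The groups overlapped, and the log2 fold change of 0.68 (SE 0.312, adjusted p = 0.154 from limma, a linear model fitted to all genes with Benjamini-Hochberg adjustment over them) was not a fall, so each direction below is given by the labels. The arrays had between 24241 and 36968 probes well above background by the flag of the scanner software, with the 2 lowest counts on siControl arrays 3 and 1, and no spot was saturated. All 8 luminal prostate markers examined, among them KLK3, KLK2, TMPRSS2, FOLH1, HOXB13, KRT8 and KRT18, were well above background on all arrays. At an adjusted p under 0.05 (limma) 4 of the 8 were lower, 2 of them by at least 2-fold, and 1 was higher. Over all genes tested 14.2% were lower and 12.3% higher. KLK3 was at -1.63, KLK2 at -1.84, HOXB13 at -0.40 and KRT8 at 0.56, and the median of the luminal list was -0.27. Of 8 stromal and immune markers COL3A1 and LUM were removed by the filter on low signal. Of the 6 tested, 2, COL1A1 and PTPRC, were well above background on all arrays. PTPRC and CD68 of that list were higher on the arrays labelled siGATA2, with log2 fold changes of 0.87 and 2.00 (adjusted p = 0.00138 and 0.000592, limma), and CD68 was well above background on 3 of the 4 siControl arrays. The other tested markers were not called, with COL1A1 at -0.13, COL1A2 at -0.21, DCN at -0.29 and CD3E at -0.14, and the median of the list was -0.13. The mean of the 6 was 6.81 to 6.99 on the siGATA2 arrays against 6.49 to 6.63 on the siControl arrays, a difference that came from PTPRC and CD68. Its part in the results was not tested.

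The promoters of the 3 members with the largest falls are shown because letters recognised by E2F factors, the regulators of many replication genes, recurred in the promoters of these genes. Each sequence is from RefSeq (GRCh38.p14), runs from 250 bases before the transcription start to 20 bases after it on the gene's own strand, and has the matched E2F letters in capitals. RAD54L lies at chr1:46247438-46247707 on the plus strand, BRIP1 at chr17:61863509-61863778 on the minus strand and EXO1 at chr1:241847954-241848223 on the plus strand.
RAD54L: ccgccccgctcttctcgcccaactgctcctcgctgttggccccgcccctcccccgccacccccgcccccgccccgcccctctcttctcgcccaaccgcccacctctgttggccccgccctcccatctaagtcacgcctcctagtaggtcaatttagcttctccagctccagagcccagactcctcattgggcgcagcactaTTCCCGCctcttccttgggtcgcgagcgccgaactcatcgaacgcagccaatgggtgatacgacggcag
BRIP1: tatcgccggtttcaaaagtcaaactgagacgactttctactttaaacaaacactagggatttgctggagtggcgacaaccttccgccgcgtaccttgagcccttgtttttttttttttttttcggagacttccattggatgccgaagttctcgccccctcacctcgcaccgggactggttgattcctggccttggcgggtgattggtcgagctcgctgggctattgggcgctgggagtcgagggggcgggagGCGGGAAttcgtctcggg
EXO1: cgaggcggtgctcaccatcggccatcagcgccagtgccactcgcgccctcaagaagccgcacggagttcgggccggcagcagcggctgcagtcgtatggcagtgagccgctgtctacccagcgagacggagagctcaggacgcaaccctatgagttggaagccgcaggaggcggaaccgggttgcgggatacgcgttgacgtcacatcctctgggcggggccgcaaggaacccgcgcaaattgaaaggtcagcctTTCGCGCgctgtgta
In RAD54L the capitals read TTCCCGC, with their first base 49 bases before the start. In BRIP1 they are the same letters on the opposite strand, beginning at base 3 after the start. In EXO1 they read TTCGCGC and begin at base 6 after the start.

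Windows of 300 bases, from 250 before to 50 after the start, were found for 33 of the 37 members. On both strands, 18 of the 33 (54.5%) held E2F letters, which were searched as TTGGCGC and as its relatives TTCCCGC, written above, TTCGCGC, also above, and lastly TTGCCGC, against 13.1% of 27305 promoters in the table and 18.1% of the 13921 promoters of tested genes. Of the 19 members with a window and a fall of at least 2-fold, 11 held E2F letters. BRCA2, CHEK1 and H2AX were among those that did not. The letters also stood in XRCC2, whose signal showed no common direction. The CCAAT box, CCAAT, was found in 17 members (51.5%) against 35.7% of all promoters, and the CHR letters of genes used late in the cell cycle, TTTGAA and its variant TTCGAA, in 6 (18.2%) against 16.6%. The letters AGATAA, a form of the site that GATA factors bind, were found in 0 of the 33 windows, against 10.5% of all promoters and 6.83% of those of tested genes. Other forms of that site were not searched. TTGGCGC can overlap a CCAAT box read on the other strand. A match or its absence describes these letters in this window only.

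Most of the repair genes had less signal on the arrays labelled siGATA2. Of the 37 members, 33 were lower at an adjusted p under 0.05 (limma over all genes), where 14.2% of all genes tested were lower. ATR was the single member called higher, where 12.3% of all genes were higher, and its log2 fold change changed sign under scaling of all 8 arrays to E1A, control RNA added to every sample and read by 7 probes, but not with siControl array 1 left out of that scaling. ATM, MRE11 and XRCC2 were not called. In 23 members the fall was at least 2-fold, against 7.13% of all genes. In 10 of these it was at least 4-fold, a size for which the share over all genes was not counted. No member was at least 2-fold higher, against 4.52% of all genes. The median log2 fold change of the members was -1.51, beside 0.09 over all genes tested. In 36 members the 2 groups of arrays did not overlap, 35 of them lower on the arrays labelled siGATA2, where 32.6% of all genes did not overlap in either direction. With 4 arrays against 4, an exact two-sided permutation test cannot give a p below 0.0286, the value for each of these 36.

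**Figure D1:**
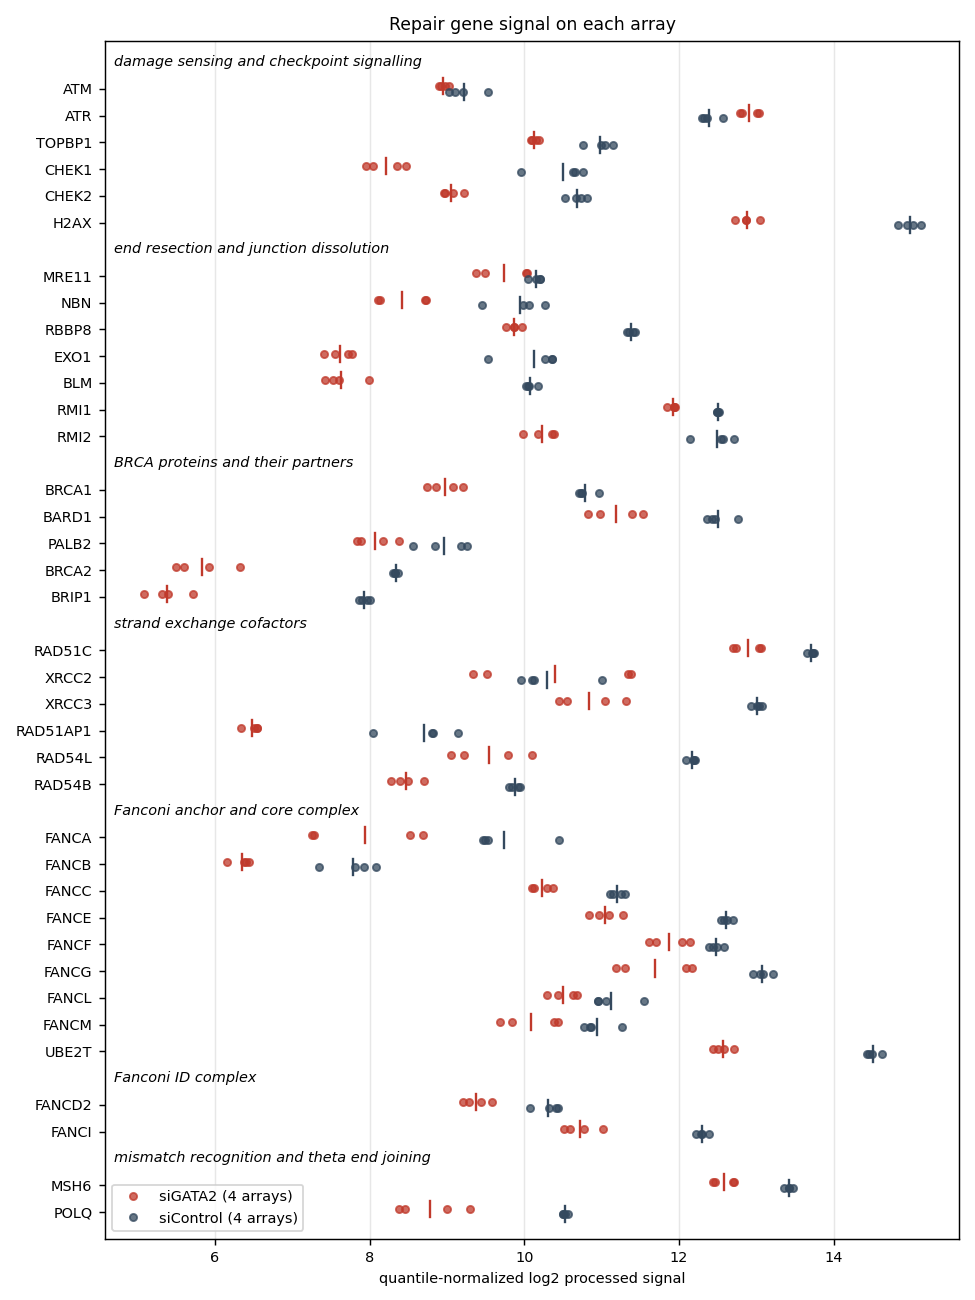
Quantile-normalized log2 processed signal (x axis) of each of the 37 genes (rows, grouped by role) on the 4 arrays labelled siGATA2 (red points) and the 4 labelled siControl (dark points), with the group mean as a vertical line. In 35 rows all red points lie to the left of the dark ones; ATR lies the other way, though not under E1A scaling of all 8 arrays, and XRCC2 overlaps. Signals of different rows come from different probes and are not comparable with each other.

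The damage sensors and checkpoint genes did not move together. ATR, the kinase that responds to single-stranded DNA at stalled forks, was 13.03, 13.01, 12.78 and 12.82 on the arrays labelled siGATA2 and 12.56, 12.37, 12.30 and 12.32 on those labelled siControl. All siGATA2 values were above all siControl values, and the difference of 0.52 (SE 0.113, adjusted p = 0.0111, limma) turned to -0.13 (adjusted p = 0.929) when all 8 arrays were scaled to the E1A spike-in. With siControl array 1, on which the spike-in read low, left out of that scaling it was 0.31 (adjusted p = 0.254). E1A scaling was applied to signals that were not quantile-normalized, and with all arrays the median of all genes was -0.43 in place of 0.09. ATR stood 0.43 above the median with quantile normalization. Under E1A scaling it stood 0.30 above the median. Scaling to the 75th percentile gives the same distance by construction, because both scalings shift each array as a whole. CHEK1, the kinase that ATR activates, was 8.05, 7.96, 8.36 and 8.47 against 9.95, 10.66, 10.76 and 10.63. Its groups were far apart, although siControl array 1 lay below the other siControl arrays, and the log2 fold change was -2.29 (SE 0.210, adjusted p = 0.000164, limma), a 4.90-fold lower signal. TOPBP1, the scaffold that switches ATR on, was 10.09, 10.08, 10.15 and 10.19 against 10.76, 10.99, 11.14 and 11.05. It fell by 0.85 on the log2 scale (SE 0.112, adjusted p = 0.000946, limma).

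ATM, the kinase that responds to broken ends, had a signal of 8.89, 8.92, 8.98 and 9.02 in siGATA2 and 9.53, 9.10, 9.21 and 9.03 in siControl. The lowest siControl value was just above the highest siGATA2 value, and the log2 fold change of -0.26 (95% confidence interval -0.57 to 0.04, adjusted p = 0.180, limma) was not called. CHEK2, the kinase that ATM activates, was 9.22, 9.07, 8.97 and 8.96 against 10.53, 10.73, 10.82 and 10.67. H2AX, the histone that ATM marks at breaks, was 13.04, 12.86, 12.73 and 12.86 against 15.12, 15.02, 14.83 and 14.95. Within each group both genes varied little, and their log2 fold changes were -1.63 (SE 0.111, adjusted p = 4.41e-05) and -2.11 (SE 0.114, adjusted p = 2.14e-05) in limma. So 4 of the 6 genes with this role were lower, 3 of them by at least 2-fold, and the median log2 fold change was -1.24.

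Among the genes that trim broken ends and dissolve joined DNA molecules, 6 of 7 were lower and 5 at least 2-fold lower, with a median log2 fold change of -1.52. MRE11, the nuclease of the complex that first binds broken ends, was 9.49, 9.37, 10.02 and 10.04 on the arrays labelled siGATA2 and 10.04, 10.21, 10.15 and 10.20 on those labelled siControl. Arrays 3 and 4 of siGATA2 reached almost to the lowest siControl array, and the log2 fold change of -0.42 (SE 0.176, adjusted p = 0.123, limma) was not called. NBN, the adaptor of the same complex, was 8.13, 8.11, 8.71 and 8.72 against 9.46, 10.27, 9.98 and 10.06, with the same pair of siGATA2 arrays the higher ones. Its fall of 1.52 on the log2 scale (SE 0.229, adjusted p = 0.00191, limma) was larger than the spread within either group. RBBP8, also known as CtIP, which starts resection with that complex, fell by 1.51 on the log2 scale (SE 0.0925, adjusted p = 2.94e-05, limma), from 11.38 ± 0.0468 (SD, n = 4) to 9.87 ± 0.0830 (SD, n = 4).

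EXO1, the exonuclease that extends resection, was 7.72, 7.41, 7.56 and 7.77 on the arrays labelled siGATA2 against 9.52, 10.36, 10.36 and 10.27 on those labelled siControl. Although siControl array 1 was the low one of its group, the groups did not overlap, and EXO1 was 5.71-fold lower (log2 fold change -2.51, SE 0.208, adjusted p = 0.000103, limma). BLM, the helicase that works beside it and undoes joined molecules, was 8.00, 7.61, 7.52 and 7.42 against 10.06, 10.05, 10.17 and 10.02. Its groups were 2.03 apart at their nearest arrays, and it was 5.44-fold lower (log2 fold change -2.44, SE 0.140, adjusted p = 2.41e-05, limma). RMI1 and RMI2 are partners of BLM in the complex that separates double junctions. RMI2 was 10.18, 9.98, 10.36 and 10.38 against 12.14, 12.55, 12.70 and 12.56, a log2 fold change of -2.27 (SE 0.156, adjusted p = 4.66e-05, limma). RMI1 was 11.94, 11.84, 11.94 and 11.95 against 12.52, 12.51, 12.49 and 12.49, so its arrays lay close together in both groups and a log2 fold change of only -0.59 (SE 0.0857, adjusted p = 0.00167, limma) stood clear of them.

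All 5 BRCA genes and partners were lower, 4 of them by at least 2-fold, with a median log2 fold change of -1.81. BRCA2, which prepares resected DNA for strand exchange, was 6.32, 5.93, 5.60 and 5.50 on the arrays labelled siGATA2 and 8.33, 8.33, 8.37 and 8.31 on those labelled siControl. The siControl arrays agreed within 0.0634, the siGATA2 arrays spread over 0.824, and the signal was 5.65-fold lower (log2 fold change -2.50, SE 0.182, adjusted p = 6.00e-05, limma). BRIP1, a helicase that binds BRCA1, was 5.72, 5.40, 5.32 and 5.08 against 7.86, 8.00, 7.97 and 7.90. No array overlapped, the signal was well above background on all 8, and it was 5.87-fold lower (log2 fold change -2.55, SE 0.145, adjusted p = 2.36e-05, limma). With normexp background correction, which shrinks differences of dim probes by construction, the log2 fold changes of BRCA2 and BRIP1 were -1.61 and -1.49.

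BRCA1, the ubiquitin ligase that promotes resection and recruits PALB2, was 9.21, 9.08, 8.75 and 8.86 on the arrays labelled siGATA2 against 10.71, 10.74, 10.97 and 10.73 on those labelled siControl. The groups were 1.50 apart at their nearest arrays, and the log2 fold change was -1.81 (SE 0.134, adjusted p = 6.46e-05, limma). BARD1, which forms a stable dimer with BRCA1, was 11.54, 11.39, 10.98 and 10.82 against 12.77, 12.47, 12.36 and 12.42, a log2 fold change of -1.32 (SE 0.186, adjusted p = 0.00137, limma). PALB2, the link between BRCA1 and BRCA2, was 7.89, 7.84, 8.37 and 8.17 against 8.56, 9.26, 8.85 and 9.18. Its groups were only 0.183 apart, with siControl array 1 nearest to the siGATA2 arrays, and its fall of 0.89 on the log2 scale (SE 0.197, adjusted p = 0.0118, limma) was the smallest of this role.

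The strand exchange genes held both the largest fall and the member with no common direction. RAD54L, a motor protein that drives strand exchange, was 10.10, 9.79, 9.06 and 9.22 on the arrays labelled siGATA2 and 12.20, 12.09, 12.19 and 12.18 on those labelled siControl. The siControl arrays lay within 0.109 of each other, and the signal was 6.17-fold lower (log2 fold change -2.63, SE 0.228, adjusted p = 0.000129, limma). RAD51AP1, a cofactor of strand pairing, was 6.55, 6.34, 6.55 and 6.51 against 8.04, 9.14, 8.83 and 8.81. XRCC3, a strand exchange cofactor, was 11.31, 11.04, 10.45 and 10.55 against 12.92, 13.00, 13.08 and 13.03. Neither gene showed overlap, and they were 4.66-fold and 4.50-fold lower (adjusted p = 0.000261 and 0.000163, limma). RAD54B, a relative of RAD54L, and RAD51C, which pairs with XRCC3, fell by 1.41 (SE 0.119, adjusted p = 0.000113) and 0.83 (SE 0.119, adjusted p = 0.00153) on the log2 scale in limma.

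XRCC2, another strand exchange cofactor, was 11.38, 11.34, 9.34 and 9.52 on the arrays labelled siGATA2 and 11.00, 9.96, 10.13 and 10.09 on those labelled siControl. Arrays 1 and 2 of siGATA2 and array 1 of siControl were high and the other 5 were low, so the groups overlapped and the difference of 0.10 (95% confidence interval -1.15 to 1.34, adjusted p = 0.912, limma) says little about direction. The 3 high arrays are those whose sample titles carry the letters A or B, and the 5 low ones carry D to G. Within A and B the difference was 0.36 and within D to G it was -0.63. What the letters stand for is not given in the sources used here.

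All 9 Fanconi anchor and core genes were lower, 5 of them by at least 2-fold, with a median log2 fold change of -1.39. UBE2T, the conjugating enzyme that supplies ubiquitin to the core complex, was 12.72, 12.44, 12.50 and 12.58 on the arrays labelled siGATA2 and 14.43, 14.49, 14.63 and 14.46 on those labelled siControl. Both groups were tight, and it had the largest fall of the role, 3.84-fold (log2 fold change -1.94, SE 0.104, adjusted p = 2.13e-05, limma). FANCL, the ubiquitin ligase that UBE2T serves, was 10.68, 10.62, 10.43 and 10.29 against 11.55, 10.95, 11.06 and 10.95. Its log2 fold change of -0.62 (SE 0.169, adjusted p = 0.0292, limma) was no longer called when any 1 of siGATA2 arrays 2, 3 or 4 or siControl array 3 was left out, with adjusted p between 0.0522 and 0.0733. FANCL was also not called without siControl arrays 1 and 3 (adjusted p = 0.0865) or with the slide row as a block (adjusted p = 0.0892).

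FANCA, a scaffold of the core, was 8.69, 8.53, 7.28 and 7.26 on the arrays labelled siGATA2 and 10.45, 9.49, 9.53 and 9.46 on those labelled siControl. On this probe, the brightest for the gene, it split by the title letters as XRCC2 did, with siGATA2 arrays 1 and 2 and siControl array 1 the high ones. The groups still did not overlap: the difference was -1.84 within A and B and -2.22 within D to G. Of the other FANCA probes, the one at -1.18 split in the same way. The one at -2.50 did not, at 5.87, 5.67, 5.59 and 5.71 against 7.96, 8.32, 8.30 and 8.27, with siControl array 1 the lowest of its group. Over all 8 arrays the log2 fold change of the brightest probe was -1.79 (SE 0.406, adjusted p = 0.0135, limma), and without siControl arrays 1 and 3 it was -1.53 (adjusted p = 0.0736). FANCG, which binds FANCA, was 12.16, 12.09, 11.19 and 11.30 against 13.05, 12.96, 13.21 and 13.09, with the same pair of siGATA2 arrays high but no such split among the siControl arrays. Its log2 fold change was -1.39 (SE 0.243, adjusted p = 0.00395, limma).

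The other core genes fell by unequal amounts. FANCB and FANCE, both needed for the core to hold together, fell by 1.45 (adjusted p = 0.000566) and 1.57 (adjusted p = 7.57e-05) on the log2 scale in limma. FANCC fell by 0.98 (adjusted p = 0.000403) and FANCM, the motor that anchors the core on DNA, by 0.85 (adjusted p = 0.0187). FANCF fell by 0.60 (SE 0.144, adjusted p = 0.0167, limma). FANCF lost its call without siControl array 2 (adjusted p = 0.0534) and FANCM without siGATA2 array 4 (adjusted p = 0.0507). Both also lost it without siControl arrays 1 and 3 (adjusted p = 0.0622 and 0.0945) and with the slide row as a block (adjusted p = 0.0828 and 0.0603), where 1 row held 3 siGATA2 arrays and 1 siControl array and the other row the reverse.

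FANCD2 and FANCI form the clamp that the core complex modifies. FANCI was 11.02, 10.77, 10.59 and 10.51 on the arrays labelled siGATA2 and 12.38, 12.22, 12.29 and 12.28 on those labelled siControl, a log2 fold change of -1.57 (SE 0.132, adjusted p = 0.000109, limma). FANCD2 was 9.59, 9.44, 9.28 and 9.20 against 10.08, 10.43, 10.32 and 10.41, a log2 fold change of -0.94 (SE 0.133, adjusted p = 0.00143, limma). Both were clear of overlap, FANCI by 1.20 and FANCD2 by 0.489 at the nearest arrays.

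POLQ and MSH6 act outside recombination. POLQ, the polymerase that joins resected ends through short matching stretches, was 9.30, 9.00, 8.38 and 8.46 on the arrays labelled siGATA2 and 10.57, 10.49, 10.50 and 10.53 on those labelled siControl. All siControl arrays agreed within 0.0744, and POLQ was 3.34-fold lower (log2 fold change -1.74, SE 0.210, adjusted p = 0.000631, limma). MSH6, which takes part in recognising mismatched bases, was 12.43, 12.47, 12.70 and 12.71 against 13.36, 13.48, 13.42 and 13.42, a log2 fold change of -0.84 (SE 0.107, adjusted p = 0.000839, limma). Scaling to the E1A spike-in, which on siControl array 1 read 11.13 against 13.45 to 13.83 on the other arrays, left 23 members called lower and ended the calls of TOPBP1, RMI1, PALB2, RAD51C, FANCC, FANCF, FANCL, FANCM, FANCD2 and MSH6, although all 33 stayed negative and these 10 lay between -1.59 and -1.23. With siControl array 1 left out of that scaling, 33 members were called lower.

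**Figure D2:**
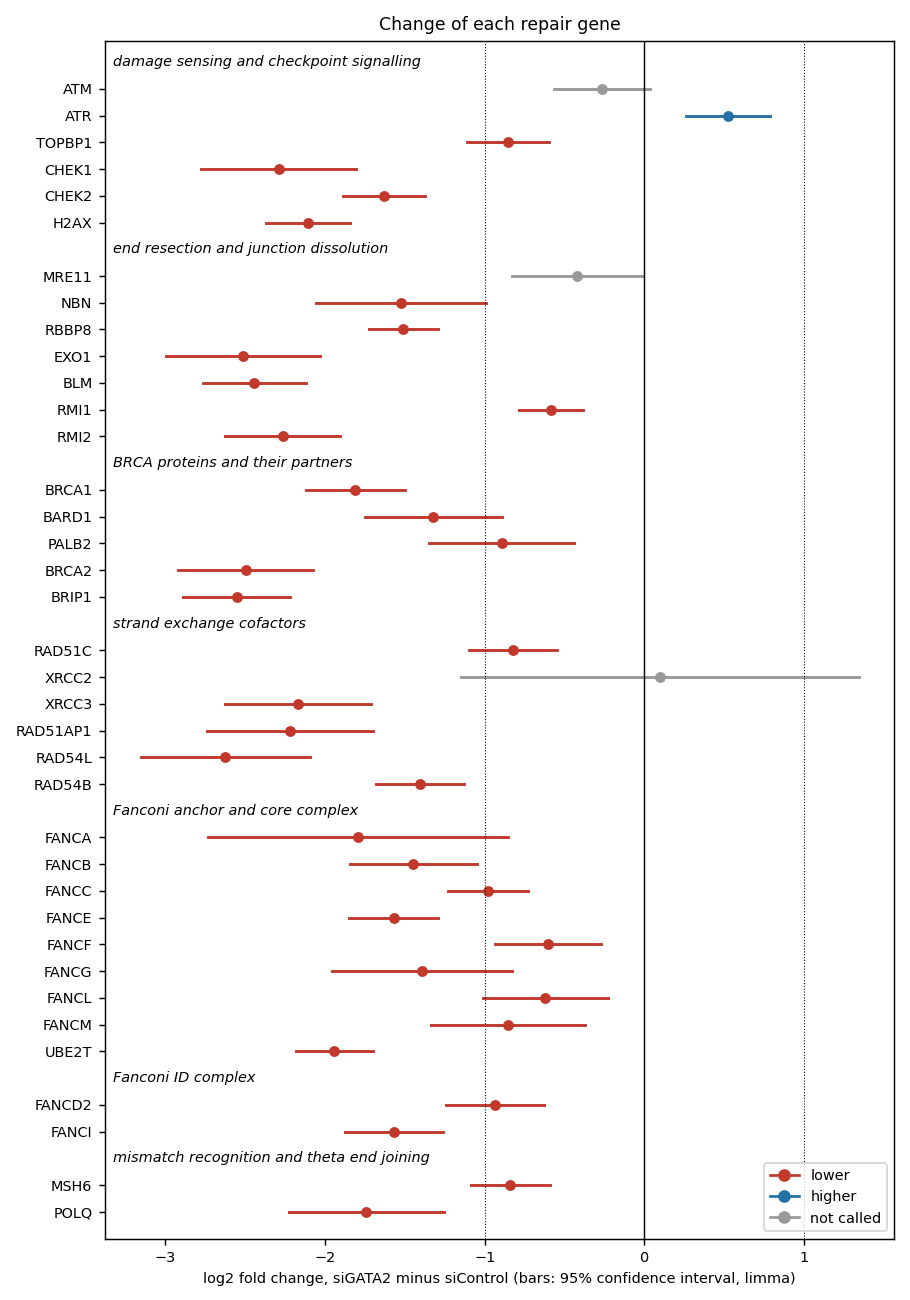
Log2 fold change of each of the 37 genes (x axis, siGATA2 minus siControl; points) with its 95% confidence interval from limma (bars), grouped by role; dotted lines mark a 2-fold change. The 33 genes called lower (red) run from RAD54L at -2.63 to RMI1 at -0.59, ATM, MRE11 and XRCC2 (grey) were not called, and ATR (blue) was higher by 0.52 but at -0.13 under E1A scaling, and at 0.31 with siControl array 1 left out of it.

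Among the pairs of genes chosen here, the genes of a pair often changed by unequal amounts. The products are partners or, for RAD54L and RAD54B, relatives. In 13 pairs, chosen after the values had been seen by their known relation, the difference in log2 signal within each array was compared between the groups. This difference does not depend on how an array as a whole is scaled. The change of this difference was -2.81 for CHEK1 relative to ATR, -1.38 for TOPBP1 relative to ATR, -1.84 for H2AX relative to ATM and -1.36 for CHEK2 relative to ATM. Within complexes, it was -1.86 and -1.68 for BLM and RMI2 relative to RMI1, -1.60 for BRCA2 relative to PALB2, -1.34 for XRCC3 relative to RAD51C and -1.10 for NBN relative to MRE11. It was -1.32 for UBE2T relative to FANCL, -1.22 for RAD54L relative to RAD54B and -0.63 for FANCI relative to FANCD2. The arrays of the 2 groups overlapped only for BRCA1 relative to BARD1, whose change was -0.49. Each pair was written with the gene that fell more first, so the negative sign of every change follows from that order. How often the groups do not overlap for other pairs of genes was not counted. As the pairs were picked with the values known, these differences are descriptions and carry no test.

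**Figure D3:**
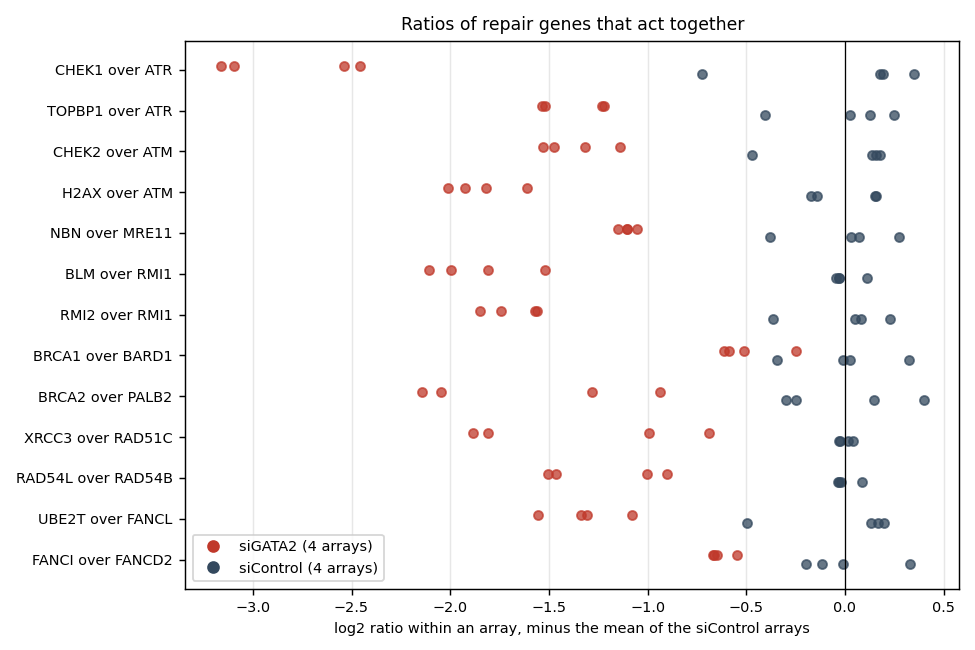
Difference in log2 signal between the genes of a pair within each array (x axis, centred on the siControl mean) for 13 pairs (rows), with points for the 4 arrays labelled siGATA2 (red) and the 4 labelled siControl (dark). Red points lie to the left of all dark points in 12 rows, farthest for CHEK1 over ATR (mean -2.81), and overlap for BRCA1 over BARD1 (-0.49). The common direction follows from naming first the gene of each pair that fell more.

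For most of these genes the arrays labelled siGATA2 varied more than those labelled siControl. The standard deviation over the 4 arrays was larger in siGATA2 for 27 of the 37 members, with a median of 0.191 against 0.120 in siControl. The same count over all genes was not made. Title letters A and B and letters D to G divide the siGATA2 arrays 2 and 2 but the siControl arrays 1 and 3. The part of this division in the spread was not tested. Among the siControl arrays, array 1 was the lowest of the 4 for 19 members and the highest for 14. Its negative controls, like those of array 3, were the noisiest, at 4.49 and 7.26 intensity units (SD) where the other 6 ranged from 1.78 to 2.40. Without both of these arrays 29 members were called lower and the median log2 fold change was -1.52.

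The title letters moved with XRCC2, GATA2 and the brightest FANCA probe, and over all probes the siGATA2 arrays also grouped by them. Arrays 1 and 2 of siGATA2 correlated at 0.997 and arrays 3 and 4 at 0.994, against 0.981 to 0.984 between these pairs. The siControl arrays did not group in this way. Array 1 correlated with arrays 2 and 4 at 0.977 and 0.976, and array 3, of the same letter set as these, at 0.966 and 0.965. The tests over all arrays treat the arrays of a group as independent, and whether they are was not tested. For this reason the difference was also taken within each set of letters, a comparison added after the data had been seen. Letters A and B hold 2 siGATA2 arrays and 1 siControl array, and D to G hold 2 and 3. In both sets 35 members were lower on the arrays labelled siGATA2, and the exceptions were XRCC2 and, before any scaling to E1A, ATR at 0.46 and 0.47. The median was -1.34 within A and B and -1.52 within D to G. RAD54L was at -2.26 and -3.01, EXO1 at -1.95 and -2.67, and FANCG at -0.93 and -1.84, while H2AX was at -2.17 and -2.14 and RBBP8 at -1.48 and -1.52. ATM and MRE11, not called over all arrays, were at -0.63 and -0.61 within A and B but at -0.11 and -0.16 within D to G. With 1 siControl array in A and B, no test was made within that set.

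**Figure D4:**
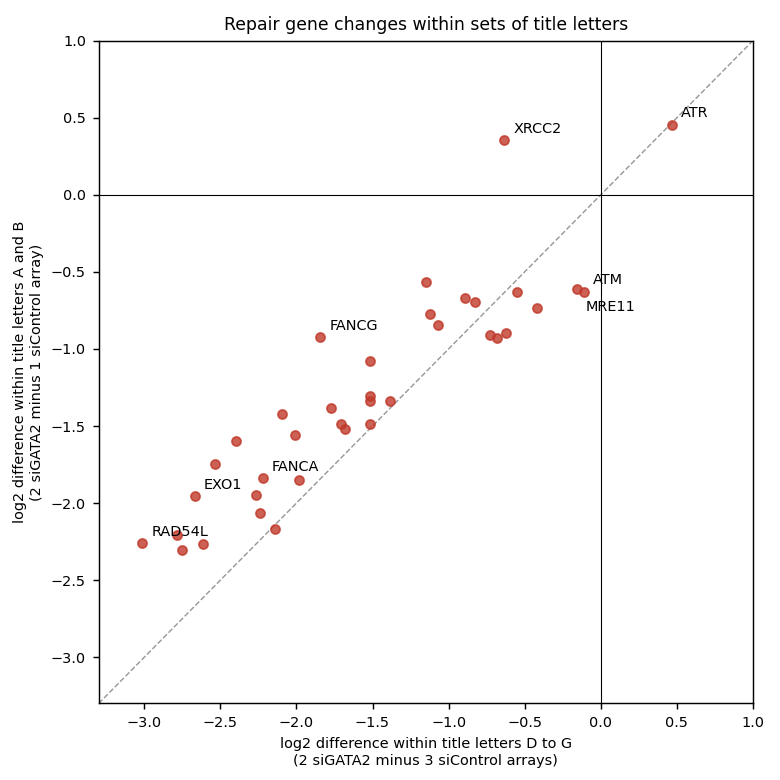
Difference in log2 signal, siGATA2 minus siControl, of the 37 genes within title letters D to G (x axis, 2 against 3 arrays) and within letters A and B (y axis, 2 arrays against 1); each point is a gene and the dashed line marks equal differences. The 35 genes at the lower left were lower in both sets, ATR was higher in both (0.47 and 0.46, but not under E1A scaling over all arrays), and XRCC2 was at -0.63 and 0.36.

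For 9 members the arrays held more than 1 probe, and in all 9 the probes had the same sign. ATR was at 0.52 and 0.40 (adjusted p over all probes = 0.0117 and 0.0304, limma), before any scaling to E1A. The probes of CHEK2 were at -1.63 and -1.70, those of RAD54B at -1.41 and -1.43, those of FANCF at -0.60 and -0.59, and those of FANCL at -0.62 and -0.63. The FANCA probes differed more, at -1.79, -1.18 and -2.50. The FANCD2 probe that was well above background on only 3 of the 4 siControl arrays was at -0.98 without being called (adjusted p = 0.0602, limma), and the others were at -0.94 and -1.07. The remaining 28 members rest on 1 probe each.

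A second list held 63 other genes of homologous recombination, crosslink repair and checkpoint signalling, of which 62 were tested. Their median log2 fold change was -0.43. Calls were made for 26 lower genes (41.9%), of which 12 passed 2-fold, and for 3 higher genes. Over all genes tested 14.2% were lower, 7.13% by at least 2-fold, and 12.3% higher. MND1, which assists strand exchange, was 8.90, 8.56, 8.64 and 8.77 on the arrays labelled siGATA2 and 11.28, 11.35, 11.48 and 11.32 on those labelled siControl. Its groups lay far apart, and the signal was 6.24-fold lower (log2 fold change -2.64, SE 0.112, adjusted p = 1.32e-05, limma). Its partner PSMC3IP was at -1.61, MDC1, the reader of marked H2AX, at -1.80, and EME1, a subunit of the MUS81 nuclease, at -1.53. The 3 that rose were SWI5, a strand exchange cofactor, at 0.74, ERCC4, the nuclease that cuts at crosslinks, at 0.67, and TP53BP1, which holds back resection, at 0.66 (adjusted p = 0.0114, 0.0191 and 0.00650, limma). Under E1A scaling these 3 remained positive at 0.09, 0.15 and 0.02, and none was called.

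In each of the other repair pathways a smaller share of genes was called lower than among the members, from 10.0% in non-homologous end joining to 43.5% in base excision repair, against 89.2%. In the second list, of other recombination and Fanconi genes, the share was 41.9%, below that of base excision repair. Over all genes tested 14.2% were lower and 12.3% higher. In non-homologous end joining, 1 of 10 genes was lower and 1 higher, with a median of -0.14: NHEJ1, a ligation factor, fell by 2.01 on the log2 scale (adjusted p = 0.000250) and LIG4, the ligase, was higher by 0.87 (adjusted p = 0.0369, limma). LIG4 was called under 10 of 23 alternatives. In mismatch repair 1 of 5 was lower and 1, PMS2, was higher by 0.86 on the log2 scale, with a median of 0.19. In nucleotide excision repair 5 of 22 were lower and 2 higher, with a median of -0.05, led by the damage sensor gene DDB2 at -1.27 and by ERCC6 at 0.87. Under E1A scaling of all 8 arrays PMS2 was at 0.20 and ERCC6 at 0.35, neither called, while both were called with siControl array 1 left out of it. Base excision repair had 10 of 23 lower and 2 higher and a median of -0.29. Its largest fall was that of FEN1, the flap nuclease that also matures replicated DNA, at -2.36. Over these 4 lists 17 of 60 genes (28.3%) were lower and 6 higher, with a median of -0.18. The lists were described by their counts, and the differences between them were not tested.

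**Figure D5:**
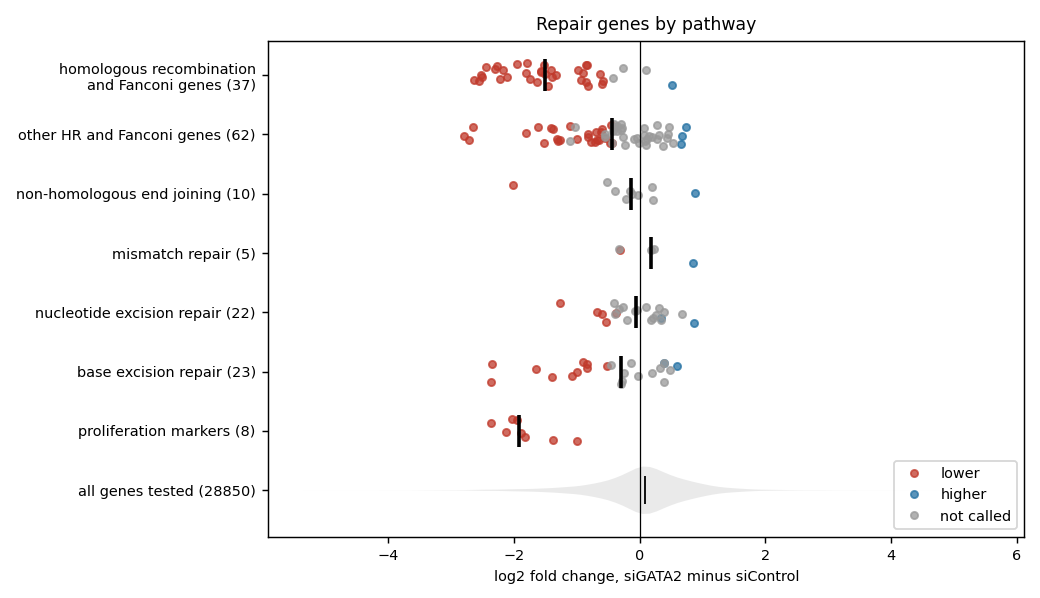
Log2 fold change (x axis, siGATA2 minus siControl) of every tested gene of 7 lists (rows, number of genes in brackets; red lower, blue higher, grey not called; bar, median), with all 28850 genes as a grey density below. The median was -1.51 for the homologous recombination and Fanconi genes, -0.43 for the other genes of these pathways, between -0.29 and 0.19 for the other repair lists, -1.91 for proliferation markers and 0.09 for all genes. Scaling all 8 arrays to E1A turned ATR, a blue point here, below 0.

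Genes that mark replicating and dividing cells moved with the members. All 8 proliferation markers were lower, 7 of them by at least 2-fold, with a median log2 fold change of -1.91. Over all genes tested 14.2% were lower, 7.13% by at least 2-fold. CCNA2, the cyclin of S phase, was 8.62, 8.36, 8.72 and 8.61 on the arrays labelled siGATA2 and 10.45, 11.06, 11.18 and 11.05 on those labelled siControl (log2 fold change -2.36, SE 0.179, adjusted p = 7.28e-05, limma). MCM2 and MCM5, subunits of the replicative helicase, were at -2.12 and -2.02, TOP2A at -1.94, the replication clamp gene PCNA at -1.88, CCNB1 at -1.82, MKI67 at -1.38 and CDK1 at -0.99. The mean of these 8 markers was between 10.82 and 11.00 on the 4 siGATA2 arrays and between 12.39 and 12.81 on the 4 siControl arrays. The mean of the 37 members was between 9.60 and 9.89 on the siGATA2 arrays and between 11.09 and 11.16 on the siControl arrays. Both means separated the groups completely, and the part of what these markers measure in the falls of the repair genes was not tested.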

How the data were processed

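The authors deposited, for each array, spot intensity as written by Agilent Feature Extraction 11.0.1.1, and for the series a matrix of log2 values. The background-corrected processed signal was used here, and the deposited log2 values, which were most like the processed signal of their own array, served as an alternative. According to the methods, processed signals were quantile-normalized, filtered on low signal and compared by t-test. The array design that the scanner output names is not the one given there. Here the log2 signals of unflagged spots were averaged per probe and the 8 arrays quantile-normalized. Probes lacking annotation, and those averaging under 3, were dropped, which left 35514 of 42405. Names came from a RefSeq table (GRCh38.p14), and each gene was read from its brightest probe. The groups were compared with limma 3.58.1 (lmFit, eBayes) in R 4.3.3, checked on simulated data, with Benjamini-Hochberg adjustment over all 28850 genes and calls at an adjusted p under 0.05.

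The 37 members, the gene lists and the rules were chosen with earlier results of these data known. The genes named are all members, GATA2, the proliferation markers, and the called genes with the largest falls and rises of each other list (5 each way in the second list, 1 in the others), among genes well above background on every array of a group. Luminal, stromal and immune markers were named as checks. Some genes that these rules and lists would name are not reported here. Alternatives were other scalings, background corrections, filters and probe rules, the deposited values, an intensity trend, the methods' t-test, array weights, blocks by replicate number, slide row and title letters, and leaving out arrays. With 1 slide and 1 scan for the whole series, slide was not used as a block. Arrays have no read depth, and their number limits the precision.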

Additional observations from a re-analysis of the deposited data

Results flagged for a closer look

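In groups of 4 arrays, a value was singled out where its gap to the nearest other value, divided by the range of the group, was above Dixon's 95% critical value. Of 118 groups examined 11 were singled out, 9 of them through siControl array 1. Chance gives about 1 in 20 groups.

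Among the members, siControl array 1 was low for CHEK1 (9.95 against 10.63 to 10.76, ratio 0.835) and EXO1 (9.52 against 10.27 to 10.36, ratio 0.893). The same array was high for XRCC2 (11.00 against 9.96 to 10.13, ratio 0.839) and FANCA (10.45 against 9.46 to 9.53, ratio 0.926). BRCA1 was high on siControl array 3 (10.97 against 10.71 to 10.74, ratio 0.864), and RMI1 was low on siGATA2 array 2 (11.84 against 11.94 to 11.95, ratio 0.863). In CHEK1, EXO1, FANCA, BRCA1 and RMI1 the singled-out array left the groups apart, and in XRCC2 they overlapped.

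Among the other genes, siControl array 1 was low for PSMC3IP (ratio 0.876), TOP2A (10.85 against 11.65 to 11.74, ratio 0.899), CCNB1 (ratio 0.871) and CDK1 (14.07 against 14.29 to 14.30, ratio 0.968), and high for PMS2 (12.21 against 11.70 to 11.74, ratio 0.930).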

How the results depend on the processing

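Under 23 alternatives all 33 members called lower kept a negative log2 fold change, and 22 of them were called under every one. The count called lower was 23 under E1A scaling, 29 without siControl arrays 1 and 3, 30 with slide row as a block, 34 with array weights and 31 to 33 with 1 array left out, and the count at least 2-fold lower was 22 to 29. The count called higher was 0 under E1A scaling, also without siControl array 1 in that scaling, and with slide row as a block, 2 with array weights and 1 with any 1 array left out. The median of the members was -2.06 under E1A scaling, -1.70 with siControl array 1 left out of it and -1.54 to -1.43 with 1 array left out. Of the other recombination and Fanconi genes 14 were lower and 0 higher under E1A scaling, 28 lower with siControl array 1 left out of it, 19 to 27 lower and 2 to 3 higher with 1 array left out, and the number higher was 8 with array weights, 1 without siControl arrays 1 and 3, 10 with title letters as a block and 0 under E1A scaling without siControl array 1. GATA2 was called higher with array weights (1.10, adjusted p = 0.00194, limma) and with title letters as a block (0.47, adjusted p = 0.0261), at 0.49 to 0.89 with 1 array left out. ATR, at 0.52, was at -0.13 under E1A scaling and was not called with slide row as a block (adjusted p = 0.0510) or under E1A scaling without siControl array 1 (adjusted p = 0.254). XRCC2 was at -0.53 under E1A scaling, -0.13 with slide row, -0.28 with title letters, -0.23 without siGATA2 array 1, -0.22 without siGATA2 array 2 and -0.01 without siControl array 2, up to 0.45 with another array left out, and was called higher with array weights (0.97, adjusted p = 0.0403). MRE11 was called lower with array weights and with title letters as a block, ATM under no alternative. The cause of these changes was not tested. Counts over all genes moved too, with 138 genes called higher under E1A scaling in place of 3558, and 1901 lower in place of 4086. With siControl array 1 left out of that scaling 1774 were higher and 4343 lower. Array weights gave 8042 higher and 7537 lower, and title letters as a block gave 7198 higher and 5757 lower. The title letters and the E1A scaling without siControl array 1 were chosen after seeing the data.

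The replicate numbers gave no regular sign of pairing, as the deviations of same-numbered arrays correlated at 0.54, -0.31, 0.17 and 0.22. The value of 0.54 is that of the arrays numbered 1, both of which carry title letters A or B. The letter B is shared by siGATA2 array 2 and siControl array 1, and F by siGATA2 array 4 and siControl array 3. Pairing by a shared letter was not examined. With the replicate number as a block, 33 members were lower, 1 higher and 23 at least 2-fold lower, with a median of -1.51, and 24 of the other recombination and Fanconi genes were lower and 3 higher. Signal over background limits members of low signal, such as BRIP1 and BRCA2, and siControl arrays 1 and 3 had the fewest probes well above background.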
